A study of Mus musculus with 24 samples.

Results

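In the saline group and the SAHA and Tadalafil group of this hippocampus series, replicas 4 to 7 differed from replicas 1 to 3 of the same treatment, first of all in small nucleolar RNAs. The split covers 14 of the 24 arrays: 8 arrays make up the second set (replicas 4 to 7, 4 of each treatment) and 6 the first set (replicas 1 to 3, 3 of each treatment). The split was selected on the measured log2 values of small nucleolar RNAs, which had been seen to follow it, so their values are a description here and the question is which other gene classes followed the same line. Genes were those named by 1 gene symbol whose probe set stood above a log2 value of 4 in at least 2 arrays of each set, which left 20179 of 22180 named genes. At that edge, Fam186a (4.001) was just inside and Lcn3 (3.999) just outside, each given as the second highest value on its lower side.

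Every array is labelled as hippocampus of a single animal. The study's methods describe 1 hippocampus from each of 3 aged female Tg2576 mice for vehicle (here called saline), SAHA, Tadalafil and the combination. They cover neither CM-414 nor replicas beyond 3, and do not say which arrays were used. Their supplement speaks of microarray batches but does not say which arrays made up each. By these methods the saline animals also carried the transgene, a human APP gene with the Swedish mutation under a prion promoter. The saline arrays are titled vehicle in the labels, and the study describes a vehicle that contained DMSO. The sources differ on the strain: the labels give B6.Cg-Tg(APPswe)E1-2Dbo/J, while the study's methods give Tg2576 on an inbred C57BL/6/SJL background. The labels give an age of 16 to 18 months, 4 weeks of treatment and then 4 weeks without it. SAHA is vorinostat, an inhibitor of histone deacetylases, and Tadalafil inhibits phosphodiesterase 5. The other 10 arrays, which the split did not use, came from CM-414 (4 arrays, a compound that the labels give only by this code name), SAHA alone (3) and Tadalafil alone (3). The labels give the replica numbers but not when or how either set was hybridised, and nothing says that a number joins animals of different groups, so the p-values measure the spread between single animals. The values are log2 expression values, on which a difference of 1 is a 2-fold change, and differences are given as replicas 4 to 7 minus replicas 1 to 3 with the standard error (SE) of the fit.

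Small nucleolar RNAs are short nuclear RNAs that guide the chemical modification of other RNAs. The C/D box class directs ribose methylation and the H/ACA box class pseudouridylation, mostly of ribosomal RNA, while the related scaRNAs act on spliceosomal RNAs in the Cajal body. In mammals most of them are cut from the introns of host genes, many of which encode ribosomal proteins or translation factors. MicroRNAs also come from longer transcripts: a hairpin is cut to a mature strand whose seed pairs with messenger RNAs. RNase P and the snRNAs are other small structural RNAs, each made from its own gene.

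Among small nucleolar RNAs, 22 of 86 passed an adjusted p of 0.05 in the comparison of the sets (limma, Benjamini-Hochberg over all genes tested), and these values are the ones by which the split was seen. Snord13, a C/D box RNA tied to maturation of the small-subunit ribosomal RNA, had a lowest, median and highest value of 10.35, 10.66 and 11.15 in replicas 4 to 7, against 7.30, 7.80 and 8.39 in replicas 1 to 3. Snora16a, of the H/ACA class, stood at 10.63, 11.07 and 11.28 against 8.98, 9.78 and 10.02. Neither RNA overlapped between the sets. Snord11 ran the other way, at 7.23, 7.46 and 7.66 in replicas 4 to 7 and 8.11, 8.59 and 8.71 in replicas 1 to 3. The 2 box classes also differed in make-up, since 7 of 26 H/ACA RNAs were past the threshold as higher and 0 as lower, whereas of 49 C/D RNAs 6 were higher and 6 lower. Of 5 scaRNAs, Scarna2 (0.70) and Scarna6 (0.43) were past it, both higher.

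Outside the small nucleolar RNAs, 359 of 20093 genes (1.79%) passed the adjusted p. Over all 20179 genes 381 did so (1.89%), 149 as higher in replicas 4 to 7 (0.738%) and 232 as lower (1.15%), with 3383 genes (16.8%) at an unadjusted p under 0.05. The median difference over all genes was -0.01. The values of the sets did not overlap for 144 higher (0.714%) and 248 lower genes (1.23%), and for 1.88% of genes besides small nucleolar RNAs. Because the split was noticed on these same arrays, the adjusted p-values of this comparison describe how far other genes follow it and are not independent evidence that it exists. Most genes past the threshold coded for proteins, 125 higher and 218 lower of 17402, a share of 1.97%. Of 1733 long non-coding RNAs 5 were higher and 3 lower, a share of 0.462%, and the difference between these shares was not tested. Calls among protein-coding genes were tied to level: when they were ranked by mean value and cut into 5 equal parts, the lowest part had 9 higher and 1 lower (0.287%), the highest part 56 higher and 121 lower (5.08%). A class of abundant transcripts therefore has a higher background than the whole table, and the class counts below are to be read with that in mind. The fourth part, at values of 7.46 to 8.50, had 2.61% called. Class shares of up to 5.08% are thus within the range of these parts, and none was tested against genes of matched level.

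**Figure D1:**
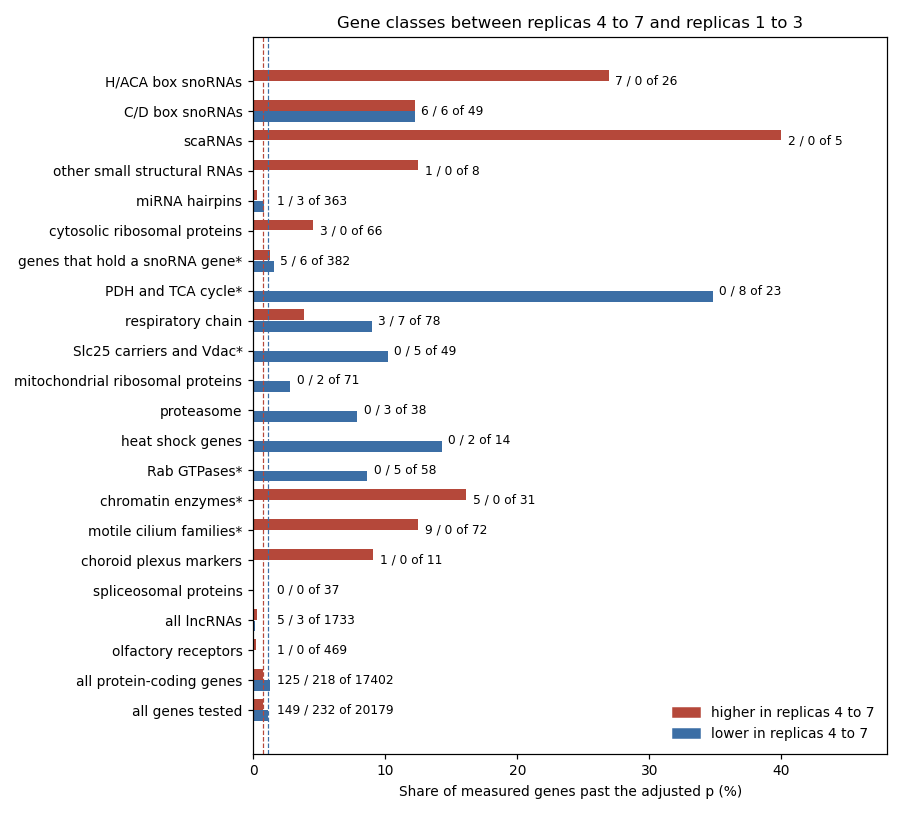
Share of the measured genes of each class that passed the adjusted p, in percent, with red bars for genes higher and blue bars for genes lower in replicas 4 to 7, and the counts (higher / lower of measured) beside them. Dashed lines mark the shares over all genes, 0.738% higher and 1.15% lower, and an asterisk marks classes drawn up after values had been seen; PDH and TCA cycle genes had 0 higher and 8 lower of 23.

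MicroRNA hairpins as a class had a smaller share of calls than all genes. Of 483 hairpins on the array 363 were measured, and 1 was higher and 3 lower, together 1.1% against 1.89% of all genes. Their means by array, 5.76 to 5.94, lay in the second of the 5 level parts of protein-coding genes, where 0.747% passed. The difference from that share was not tested. The median difference of the class was -0.02, with 157 hairpins above 0 and 206 below. The 4 that passed are shown with their mature sequences, taken from RefSeq (GRCm38.p6), because a reader may want to match them to targets. Capitals mark the seed, bases 2 to 8, and none of the 4 genes shares a seed with another of them, though the seed of mmu-miR-1954 is also that of mmu-miR-12201-3p. The genes Mir5128 and Mir1954 lie on chromosome 2, Mir154 on chromosome 12 and Mir692-1 on chromosome 17.
mmu-miR-5128: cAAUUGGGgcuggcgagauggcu
mmu-miR-154-5p: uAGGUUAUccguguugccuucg
mmu-miR-154-3p: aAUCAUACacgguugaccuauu
mmu-miR-692: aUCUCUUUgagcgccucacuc
mmu-miR-1954: aCUGCAGAgugagacccuguu
The probe set of Mir5128 was the 1 hairpin with no overlap over all 24 arrays, so its whole hairpin is given as well, with the mature strand in capitals.
Mir5128 hairpin: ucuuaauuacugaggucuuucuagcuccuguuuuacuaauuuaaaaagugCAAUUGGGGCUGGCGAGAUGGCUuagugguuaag

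Mir5128 was at 5.14, 5.78 and 5.96 in replicas 4 to 7 (lowest, median, highest), against 6.13, 6.36 and 6.49 in replicas 1 to 3, a difference of -0.68 (SE 0.12, adjusted p = 0.0141). The sets did not overlap. Mir154 differed by -0.46 (SE 0.10, adjusted p = 0.0263), with values of 5.27 to 6.15 in replicas 4 to 7 that overlapped those of 5.91 to 6.38 in replicas 1 to 3. Mir692-1 was lower by -0.55 (SE 0.12, adjusted p = 0.0384), but its mature sequence is also that of 2 further genes, Mir692-2 and Mir692-3, so signal cannot be assigned to 1 copy. Mir1954 was the only hairpin past the threshold as higher, by 0.32 (SE 0.08, adjusted p = 0.0459), with a range of 9.21 to 9.35 against 8.74 to 9.25.

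Mir154 belongs to the imprinted cluster between Meg3 and Dio3, a long stretch of maternally expressed non-coding transcripts. Of the 61 miRNA genes that RefSeq lists in this stretch 39 were measured, a group looked at only after Mir154 had been seen. In that group 32 were below 0 and 7 above, with a median of -0.16, while Mir154 alone passed the adjusted p. Mir379 stood at -0.45 (adjusted p = 0.184), Mir495 at -0.38 (adjusted p = 0.532) and Mir409 at 0.15 (adjusted p = 0.62). The long transcripts of the same cluster gave 0.13 for Meg3 (adjusted p = 0.577) and -0.26 for Rian (adjusted p = 0.185). In the 10 arrays outside the split the median of the 39 hairpins was -0.17 for CM-414 minus the single drugs, with 30 below 0.

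Small structural RNAs were split among themselves. Rprl2, an RNase P-like RNA, was the single member called of 8 measured. Its values were 8.59, 8.82 and 8.98 in replicas 4 to 7 and 8.03, 8.36 and 8.58 in replicas 1 to 3, a difference of 0.50 (SE 0.08, adjusted p = 0.00928) without overlap. Rprl1, of the same family, had a difference of 0.24 (SE 0.11, adjusted p = 0.276), with ranges of 6.87 to 7.25 and 6.58 to 7.31. Rpph1, the RNA of RNase P itself, differed by 0.01 (adjusted p = 0.944), and Rn7sk, which holds the elongation factor P-TEFb inactive, by 0.04 (adjusted p = 0.712). The Y RNAs stood at 0.25 for Rny1 (adjusted p = 0.301) and -0.28 for Rny3 (adjusted p = 0.511). Neither the 3 spliceosomal snRNAs measured nor the 5S ribosomal RNA probe set n-R5s136 passed the threshold (0.48, SE 0.35, adjusted p = 0.529), and n-R5s136 ranged from 9.52 to 10.52 in replicas 4 to 7 and more widely, from 7.67 to 10.97, in replicas 1 to 3.

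Genes around small nucleolar RNA loci gave calls on both sides. Of 382 measured genes whose RefSeq span holds a small nucleolar RNA gene, 5 were higher and 6 lower (2.88%) with a median of 0.00. The strand was not considered, so such a gene need not be the host. Of the 38 measured members of a list of known hosts, 0 were higher and 1 lower, Cct6a, a chaperonin subunit (-0.25, SE 0.05, adjusted p = 0.0203). The exception among the strongest differences was 2410006H16Rik, a non-coding gene that holds Snord49a, Snord49b and Snord65. It reached 7.91, 8.09 and 8.38 in replicas 4 to 7, against 7.50, 7.57 and 7.60 in replicas 1 to 3, and differed by 0.54 (SE 0.06, adjusted p = 0.000473). Its groups did not overlap over all 24 arrays. Hibadh, an enzyme of valine breakdown whose span holds a small nucleolar RNA locus with no gene name, differed by -0.59 (SE 0.07, adjusted p = 0.000473) and also did not overlap between the sets. The proteins of the small nucleolar particles had a median of -0.07 over 14 genes, and without saline replica 3 only 3 of them were above 0. Naf1, an assembly factor of H/ACA particles, was the only one called (0.33, SE 0.07, adjusted p = 0.0299).

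Cytosolic ribosomal proteins gave 3 higher and 0 lower of 66 (4.55%). Rpl38 had the smallest adjusted p of the 3. It stood at 11.16, 11.24 and 11.40 in replicas 4 to 7 and at 10.29, 10.67 and 10.86 in replicas 1 to 3, a difference of 0.60 (SE 0.08, adjusted p = 0.0025). Rpl15 differed by 0.27 (SE 0.05, adjusted p = 0.0112), and neither gene overlapped between the sets. Rpl3 differed by 0.69 (SE 0.16, adjusted p = 0.0464) but its ranges met, with 9.79 to 10.53 in replicas 4 to 7 and 8.80 to 9.90 in replicas 1 to 3. The span of Rpl3 holds Snord43 and Snord83b. The median over the 66 genes was 0.04, with 37 above 0 and 29 below. Families with many near-identical processed copies, as ribosomal protein genes are, can also share probe signal.

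Genes of mitochondrial energy metabolism were found mainly on the lower side. Measured were 23 genes of pyruvate dehydrogenase and the tricarboxylic acid (TCA) cycle, a list drawn up after some of them had been seen among the lower genes. Of these, 8 were lower and 0 higher (34.8%, against 1.15% lower among all genes). The median was -0.10 and 21 were below 0. In the highest of the 5 level parts of protein-coding genes, where the means of this list lay, 121 of 3481 were lower. Pyruvate dehydrogenase links glycolysis to the cycle, and 4 of its subunits were among the 8: Pdhb, Pdhx, Pdha1 and Dld. Pdhb, the beta subunit of its first enzyme, had values of 9.68, 10.01 and 10.11 in replicas 4 to 7, against 10.24, 10.38 and 10.52 in replicas 1 to 3 (-0.41, SE 0.07, adjusted p = 0.0112). Dld, the shared dihydrolipoamide dehydrogenase, was at 9.94, 10.07 and 10.19 against 10.24, 10.39 and 10.56 (-0.33, SE 0.06, adjusted p = 0.0112). Neither gene overlapped between the sets. The other 4 were the dehydrogenase genes Idh1 (-0.37, the cytosolic isocitrate enzyme), Idh3a (-0.24), Mdh1 (-0.28, the cytosolic malate enzyme) and Sdhc (-0.39, a succinate dehydrogenase subunit).

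The respiratory chain was mixed. Of 78 measured genes 7 were lower and 3 higher (12.8%), and the median was -0.04. Atp5l, a subunit of ATP synthase, differed most, with 9.15, 9.36 and 9.54 in replicas 4 to 7 and 9.71, 10.02 and 10.16 in replicas 1 to 3 (-0.64, SE 0.08, adjusted p = 0.0015). Atp5g3, which forms the rotor ring of the same enzyme, differed by -0.37 (SE 0.06, adjusted p = 0.0112) and Ndufc2 of complex I by -0.36 (SE 0.06, adjusted p = 0.00728). By contrast, Ndufa7 (0.33) and Uqcrb (0.25) were higher, as was Cox8b (0.60, SE 0.14, adjusted p = 0.0411), an isoform of cytochrome oxidase best known from muscle. Among the Slc25 carriers and the Vdac pores, a family counted after values had been seen, 5 of 49 were lower and 0 higher, with Vdac2 at -0.28 and Vdac3 at -0.26. Mitochondrial ribosomal proteins gave 2 lower of 71 (2.82%), Mrps27 (-0.42) and Mrpl18 (-0.30). Mitochondrially encoded protein genes had no measured probe set.

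Further groups of the housekeeping kind were lower in part. Of 38 proteasome genes 3 were lower (7.89%), namely the core subunits Psma1 (-0.30, SE 0.07) and Psma2 (-0.26, SE 0.06) and the base ATPase Psmc4 (-0.32, SE 0.06), with a class median of -0.07. Of 14 heat shock genes Hsph1 (-0.31, SE 0.07, adjusted p = 0.0452) and Hspd1 (-0.23, SE 0.05, adjusted p = 0.041) were lower. Of 58 Rab GTPases, which direct vesicle traffic and were counted after values had been seen, 5 were lower and 0 higher (8.62%). They were Rab11a (-0.31), Rab18 (-0.24), Rab11b (-0.22), Rab33a (-0.22) and Rab1a (-0.20). The list of de novo purine synthesis, written after Ppat had been seen, gave 3 lower of 5 measured: Ppat, which takes the first step (-0.27), Paics (-0.38) and Atic (-0.30), while Adsl (-0.10) and Gart (-0.05) did not pass.

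Chromatin enzymes stood on the higher side. Of 31 measured histone acetyltransferases, methyltransferases and remodellers, again a list drawn up after values had been seen, 5 were higher and 0 lower (16.1%), 30 were above 0 and the median was 0.12. Bicra, a subunit of a BAF-type remodeller, had values of 7.12, 7.19 and 7.29 in replicas 4 to 7 and 6.71, 6.80 and 7.04 in replicas 1 to 3 (0.35, SE 0.06, adjusted p = 0.00919). Srcap, a remodeller that deposits a histone variant, differed by 0.22 (SE 0.04, adjusted p = 0.0259), Kat6a by 0.22 (SE 0.05, adjusted p = 0.0304) and Crebbp, the CREB-binding acetyltransferase, by 0.22 (SE 0.05, adjusted p = 0.0408). The sizes were small, yet none of these 4 genes overlapped between the sets. The remaining gene of the 5, Ncoa3, differed by 0.205 (adjusted p = 0.0316) but stood at -0.04 in the 10 arrays outside the split. Polr2a, the large subunit of RNA polymerase II, differed by 0.30 (SE 0.07, adjusted p = 0.037), whereas Tbpl1, a relative of the TATA-binding protein, was lower (-0.32, SE 0.05, adjusted p = 0.00927). Not all chromatin genes went this way either: Cbx3, a heterochromatin protein, was lower at 10.31, 10.45 and 10.51 against 10.73, 10.78 and 10.89 (-0.36, SE 0.05, adjusted p = 0.0023).

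**Figure D2:**
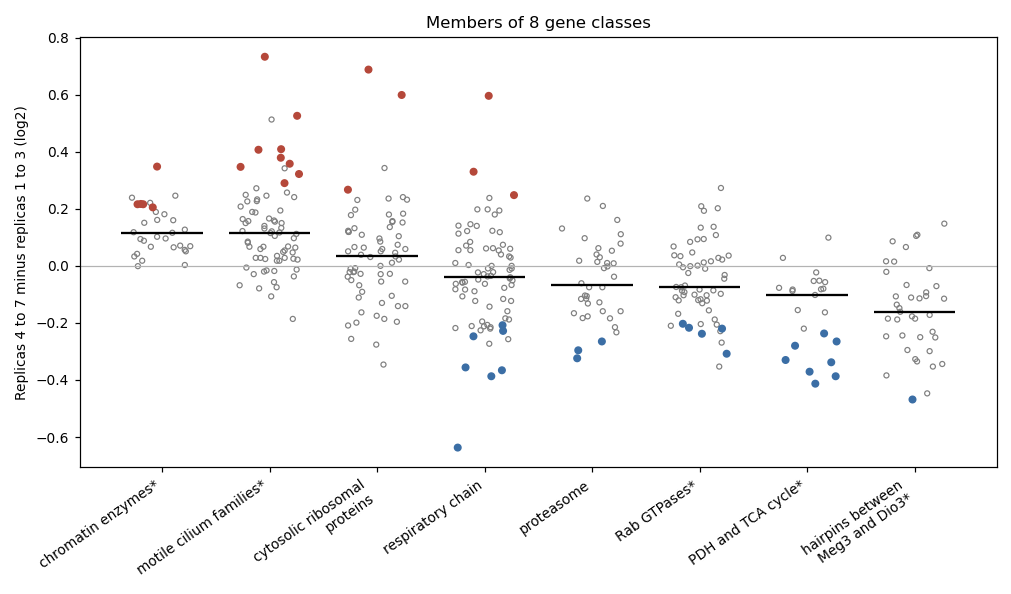
Difference of each measured member of 8 classes, replicas 4 to 7 minus replicas 1 to 3, on a log2 axis; filled points passed the adjusted p (red higher, blue lower), open points did not, black lines are class medians and an asterisk marks classes drawn up after values had been seen. Medians run between 0.12 for the chromatin enzymes and -0.16 for the hairpins between Meg3 and Dio3, and members of each class lie on both sides of 0.

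Among tissues next to the hippocampus, the choroid plexus had markers that were higher in replicas 4 to 7 of these 14 arrays. The neocortex and meninges lists had 0 called, with medians of 0.07 and 0.12. Ttr, the transthyretin of the choroid plexus, had values of 12.04, 13.22 and 13.78 in replicas 4 to 7, against 10.11, 11.23 and 12.74 in replicas 1 to 3 (1.78, SE 0.39, adjusted p = 0.0349), and its ranges overlapped. F5, coagulation factor V, which is not on the marker list, differed by 1.54 (SE 0.37, adjusted p = 0.0464). Of 11 choroid plexus markers measured all were above 0, with a median of 0.90, but only Ttr passed the adjusted p. Their mean by array was 6.79, 7.48 and 8.15 in replicas 4 to 7 (lowest, median, highest) and 6.37, 6.64 and 7.03 in replicas 1 to 3, so that 6 arrays of replicas 4 to 7 lay above that range and 2 within it. In bulk tissue, fewer cells of a type and less RNA per cell cannot be told apart.

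Genes of motile cilia, which line the ventricle on ependymal cells, moved likewise. In cilium gene families counted after values had been seen, 9 of 72 genes were higher and 0 lower (12.5%), with a median of 0.12. Drc7, of the dynein regulatory complex, had 6.29, 6.68 and 7.41 in replicas 4 to 7, against 5.65, 6.13 and 6.35 in replicas 1 to 3 (0.73, SE 0.17, adjusted p = 0.0455). Tekt1, a tektin of the axoneme, differed by 0.41 (SE 0.08, adjusted p = 0.0184), Cfap126 by 0.38 (SE 0.09, adjusted p = 0.0384), the dynein assembly factor Dnaaf5 by 0.35 (SE 0.07, adjusted p = 0.0255) and Cfap65 by 0.32 (SE 0.07, adjusted p = 0.0243). All 5 genes overlapped between the sets by at least 1 array. Of 10 ependyma markers 2 passed, Tekt1 and Cfap126, and the mean of the list was 6.00 to 6.24 in replicas 4 to 7 and 5.60 to 6.05 in replicas 1 to 3.

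**Figure D3:**
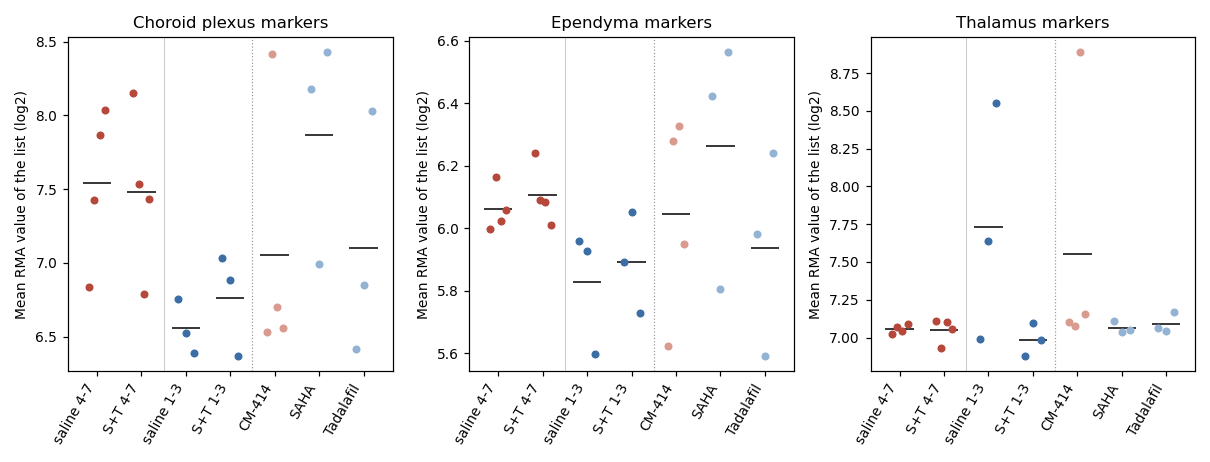
Mean log2 value of the choroid plexus, ependyma and thalamus marker lists in each of the 24 arrays (points), with group means as lines; S+T stands for SAHA and Tadalafil, numbers are replicas, and red and blue mark replicas 4 to 7 and 1 to 3, with CM-414 and the single drugs to the right of the dotted line. Choroid plexus means reach 8.15 in replicas 4 to 7 and 7.03 in replicas 1 to 3, and the thalamus mean of saline replica 3 stands apart at 8.55.

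The choroid plexus level bore on the number of calls. When the marker mean of each array was added to the fit as a covariate, a step chosen after seeing the data, 9 genes passed the adjusted p in place of 381, and 8 of these were among the 381. They were Snord13, Snora16a, Snora73a, Snord71, Scarna2 and Snord11 of the small nucleolar RNAs, 2410006H16Rik (0.59, SE 0.09) and BC004004 (0.49, SE 0.07) of the others, and Csprs (-0.86, SE 0.13), which had not passed before. All 359 other genes kept their sign, 301 of them had an unadjusted p under 0.05, their median size was 0.25 with the covariate and 0.304 without it, and their median SE was 0.087 and 0.061. The TCA cycle, ribosomal protein, proteasome, chromatin and cilium counts were then all 0. The medians were -0.10 for the TCA cycle list, 0.13 for the chromatin list and 0.06 for the cilium families. How far the choroid plexus and the sets each account for these genes cannot be told apart in 14 arrays.

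Regional markers also set single arrays apart. Saline replica 3 had a thalamus marker mean of 8.55, with 6.93 to 7.11 in replicas 4 to 7 and 6.88 to 7.64 in the other arrays of replicas 1 to 3. Its CA1 mean was 7.02, against 8.14 to 8.47 in the other 13 arrays, and its dentate gyrus mean was 6.75. SAHA and Tadalafil replica 3, also of the first set, had a low dentate gyrus mean of 7.06 and a low CA2 and CA3 mean of 7.59, with a CA1 mean of 8.35. Without saline replica 3 583 genes passed, and 345 of the 381 were among them. The TCA cycle list then had 8 lower, the chromatin list 5 higher, the ribosomal proteins 3 higher and the cilium families 7 higher. Without SAHA and Tadalafil replica 3 179 genes passed, of which 166 were among the 381. The count moved with most single arrays, from 158 without SAHA and Tadalafil replica 2 up to the 583 without saline replica 3. The thalamus list had 0 called, with a median of -0.32 with saline replica 3 and -0.13 without it. The hippocampal lists (CA1, dentate gyrus, CA2 and CA3) also had 0 called. Their medians turned on these arrays: the dentate gyrus median of 0.28 was 0.14 without saline replica 3 and 0.19 without SAHA and Tadalafil replica 3, and the CA1 median of 0.09 was -0.13 without saline replica 3.

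Many lists had no call by limma at this number of arrays. With 1.89% of all genes called, lists of this size would hold few calls or none, so 0 does not set them apart. None of the measured genes passed for immediate early genes (29 measured, 5 at an unadjusted p under 0.05), clock genes (17, 4), glucocorticoid-induced genes (16, 3), interferon response genes (22, 2), spliceosomal proteins (37, 11), RNA polymerase III transcription genes (23, 7), genes that process small RNAs (18, 3) and replication-dependent histones (19, 6), against 16.8% of all genes at that unadjusted p. Ionotropic glutamate receptors (14, 4), postsynaptic scaffolds (18, 5) and presynaptic vesicle genes (18, 7) had 0 called as well. At the unadjusted p, the spliceosomal, RNA polymerase III, histone and presynaptic lists stood above the share of all genes, and the interferon list below it. The median of the immediate early genes was -0.33 in SAHA and Tadalafil arrays and 0.21 in saline arrays, a difference that was not tested for the list. Some of these counts of 0 rested on saline replica 3. Without it, 2 immediate early genes passed as lower, 1 spliceosomal protein gene as higher and 2 as lower, and 1 gene as higher in each of the replication-dependent histones, the glutamate receptors, the postsynaptic scaffolds and the presynaptic vesicle genes.

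The unfolded protein response gave 1 call of 17, Xbp1, its transcription factor. Xbp1 was at 9.44, 9.56 and 9.84 in replicas 4 to 7 and 9.08, 9.14 and 9.39 in replicas 1 to 3 (0.43, SE 0.07, adjusted p = 0.0112), without overlap. The median of the list was -0.01, and Atf4, which drives another branch of the response, stood at -0.20. Chemosensory receptor genes, which the hippocampus is not known for, had few calls, with 1 higher of 469 olfactory receptors (Olfr566, 0.54) and 1 higher of 93 vomeronasal receptors (Vmn1r127, 0.46). Of all genes 0.738% were called as higher. Zfp457, a zinc finger gene, differed by 1.29 (SE 0.27, adjusted p = 0.0285), but from low values of 5.01 to 6.75 against 3.40 to 5.22 that overlapped.

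Within saline arrays alone 21 genes passed the adjusted p (0.104%), and within SAHA and Tadalafil arrays 9 (0.0446%), all of them among the 381. In saline 14 were higher (0.0694%) and 7 lower (0.0347%), and in SAHA and Tadalafil 6 were higher (0.0297%) and 3 lower (0.0149%). Small nucleolar RNAs made up 12 of the 21 and 7 of the 9. The 9 others in saline were 2410006H16Rik (0.61), Rpl38 (0.72), BC004004 (0.47), Nkiras1 (-0.46), Ndufc2 (-0.46), Mrps27 (-0.55), Tvp23b (-0.46), Hibadh (-0.72) and Lap3 (-0.84). In SAHA and Tadalafil arrays the 2 others were Atp5l (-0.72) and BC004004 (0.50). BC004004 thus passed in both treatments, with 8.61, 8.71 and 8.85 in replicas 4 to 7 and 8.12, 8.25 and 8.33 in replicas 1 to 3. All 359 genes called over both treatments had the same sign in each, a direction that their selection over both largely fixes, and their median size was 0.278 in SAHA and Tadalafil and 0.33 in saline. At an unadjusted p under 0.05 stood 340 of them in SAHA and Tadalafil arrays (9.75% of all genes did) and 353 in saline arrays (14.8% of all genes did). The same selection raises these sizes and counts, so they are no separate test of the split within a treatment. The test of the difference between the treatments called 0 genes by limma, with 1217 (6.03%) at an unadjusted p under 0.05.

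The 10 arrays outside the split gave a separate look at these genes. CM-414 arrays had been seen to sit with replicas 4 to 7 in their small nucleolar RNAs, and arrays of either single drug with replicas 1 to 3. The contrast of CM-414 minus the mean of the single drugs holds both a treatment and any set difference, which cannot be told apart. It called 100 genes (0.496%), 42 higher (0.208%) and 58 lower (0.287%), a count that ran between 12 (without Tadalafil replica 2 or 3) and 462 (without CM-414 replica 2) when 1 array was left out. Of the 134 genes higher in replicas 4 to 7 114 were above 0 here (85.1%), and of the 225 lower genes 207 were below 0 (92%), whereas 58.1% of all genes besides small nucleolar RNAs had the same sign in both comparisons. Without CM-414 replica 3, whose thalamus marker mean was 8.89, these numbers were 113 of 134, 217 of 225 and 61.5%. Past the adjusted p and with the same sign were 28 of the 359 (7.8%), against 0.418% of all genes besides small nucleolar RNAs.

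The 8 genes higher in both were Rpl38, Cd209a, BC004004, Xbp1, Phkg2, Dctn3, S100a1 and Igf1r. Rpl38 had values of 11.49, 11.25, 11.44 and 11.19 in CM-414 arrays, against 10.52, 10.47 and 10.54 in SAHA arrays and 10.75, 10.46 and 10.53 in Tadalafil arrays (0.80, SE 0.09, adjusted p = 0.00551). Xbp1 stood at 9.96, 9.83, 9.79 and 9.92 in CM-414 arrays, at 8.94, 8.81 and 9.04 in SAHA arrays and at 8.99, 9.01 and 9.02 in Tadalafil arrays (0.91, SE 0.08, adjusted p = 0.000646). For both genes every CM-414 array lay above every single drug array. Cd209a, a lectin of myeloid cells, differed by 0.59 between the sets (SE 0.10) and by 0.83 (SE 0.14) here. Igf1r, the receptor of insulin-like growth factor, gave 0.33 (SE 0.05) and 0.45 (SE 0.08), and Phkg2, the catalytic subunit of phosphorylase kinase, 0.43 (SE 0.06) and 0.65 (SE 0.11).

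The 20 genes lower in both included Mir5128, Pdhb, Lap3, Itm2a, Naa30, Tvp23b, Alg5, Cbx3, Norad and Ppat. Mir5128 was at 5.42, 5.66, 5.69 and 5.901 in CM-414 arrays, against 6.93, 6.62 and 6.19 in SAHA arrays and 6.49, 6.62 and 6.67 in Tadalafil arrays (-0.92, SE 0.14, adjusted p = 0.0265). Pdhb had 9.52, 10.02, 9.77 and 9.55 in CM-414 arrays, 10.29, 10.20 and 10.31 in SAHA arrays and 10.37, 10.34 and 10.24 in Tadalafil arrays (-0.58, SE 0.11, adjusted p = 0.042). Neither overlapped. Itm2a, a membrane protein on the endothelial list, differed by -0.60 (SE 0.08) between the sets and by -0.74 (SE 0.13) here. It was the only 1 of the 12 endothelial markers past the threshold between the sets, 7 of them were above 0 and their median was 0.05. Naa30, which acetylates protein ends, gave -0.43 (SE 0.06) and -0.85 (SE 0.13). Norad, a long non-coding RNA that binds Pumilio proteins, gave -0.32 (SE 0.06) and -0.67 (SE 0.12). Lap3, a leucine aminopeptidase with the largest fall among the 381 after Snord11, gave -0.77 (SE 0.08) and -0.74 (SE 0.14).

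**Figure D4:**
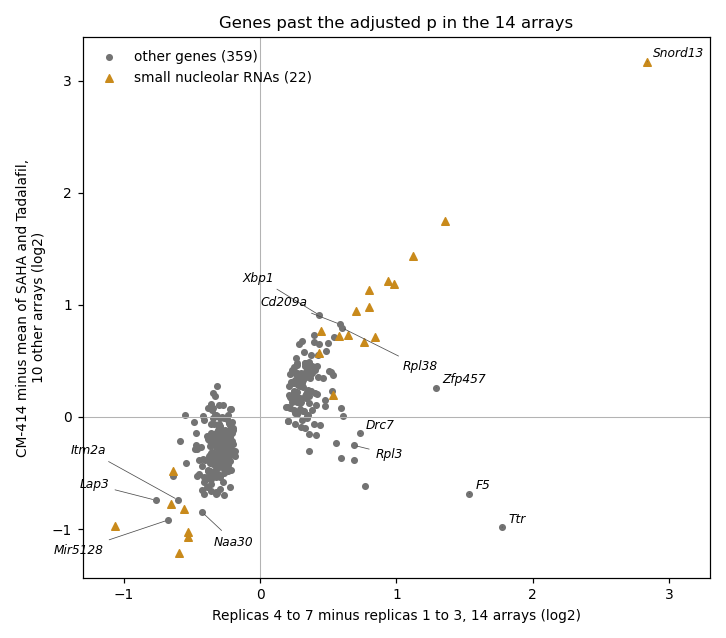
Each of the 381 genes past the adjusted p in the 14 arrays, with its difference there on the horizontal axis and the difference of CM-414 minus the mean of SAHA and Tadalafil in the 10 other arrays on the vertical axis, both on the log2 scale. Triangles are the 22 small nucleolar RNAs; Xbp1 lies at 0.43 and 0.91, while Ttr lies at 1.78 and -0.98, below the horizontal line.

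Gene classes parted in these 10 arrays. The choroid plexus list went the other way, with a median of -0.48 and 10 of 11 markers below 0, and Ttr gave -0.98 (SE 0.57, adjusted p = 0.409) with CM-414 values of 11.07, 13.81, 11.42 and 11.33. The cilium families had a median of 0.03, and Drc7 (-0.15) and Tekt1 (-0.16) were below 0. The TCA cycle list kept a median of -0.17 with 18 of 23 below 0 and 2 called as lower. These were Pdhb, also called in the 14 arrays, and Dlat, which had not passed there (-0.155, adjusted p = 0.0825). For the chromatin list the median was 0.11, with 24 of 31 above 0 and 1 called as higher. That gene was Ep400 (0.65, adjusted p = 0.0295), which stood at 0.04 in the 14 arrays (adjusted p = 0.868). None of the 5 chromatin genes called in the 14 arrays passed here. The respiratory chain (0.05) and the mitochondrial ribosomal proteins (0.06) had medians above 0 here and below 0 in the 14 arrays, and Rpl3, F5 and Cox8b also changed sign, at -0.25, -0.68 and -0.36.

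Over all 24 arrays, with CM-414 counted beside replicas 4 to 7 and the single drugs beside replicas 1 to 3, 36 genes were higher without overlap (0.178%) and 43 lower (0.213%). Of these 79 genes 11 were small nucleolar RNAs and 63 coded for proteins, and 69 were among the 381. Besides small nucleolar RNAs the share was 0.338% of genes. Higher without overlap were Rpl38, Rpl15, Rprl2, 2410006H16Rik, Xbp1, Cd209a, BC004004, Igf1r, Polr2a and Phkg2, among others. On the lower side stood Mir5128, Itm2a, Norad, Cbx3 and Vdac2, and 3 genes of the TCA cycle list, Pdhb, Dld and Idh3a. The choroid plexus list (11 measured) and the cilium families (72 measured) had 0 members in this group. At the shares of all genes given above, lists of this size would hold few or none, so these counts do not set them apart.

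**Figure D5:**
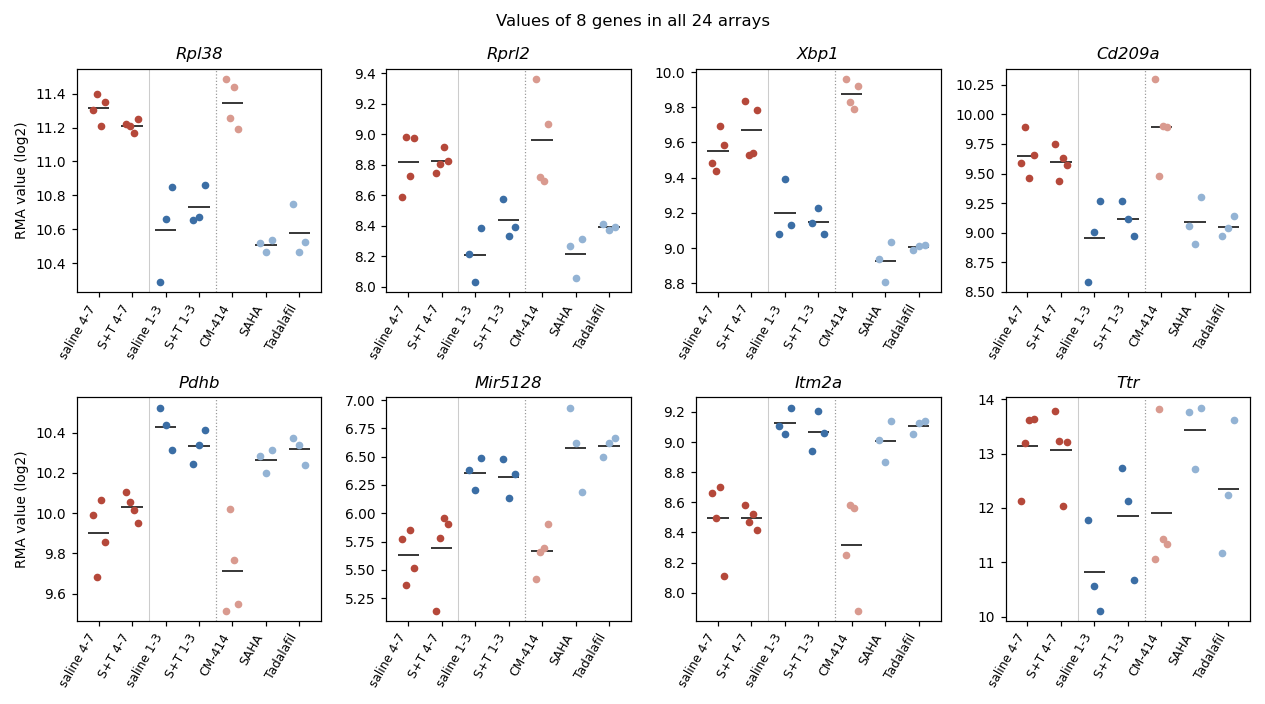
Log2 values of 8 genes in all 24 arrays (points), with group means as lines; S+T stands for SAHA and Tadalafil, numbers are replicas, and CM-414, SAHA and Tadalafil arrays are to the right of the dotted line. Rpl38, Rprl2, Xbp1 and Cd209a are higher and Pdhb, Mir5128 and Itm2a lower without overlap in replicas 4 to 7 and CM-414, while the ranges of Ttr overlap.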

How the data were processed

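Hippocampal RNA of 24 mice was measured on Affymetrix Mouse Gene 2.0 ST arrays, 1 array a mouse. The deposited values are log2 expression values that the authors made by RMA (background correction, quantile normalization, summary per probe set; version not given in the sources used here), and they were used without further scaling. Of 41345 probe sets 23521 name 1 gene, 1820 several and 16004 none. The probe set with the highest mean stood for each gene, and genes above 4 in at least 2 arrays of each side were tested. The array annotation names no genome build, so RefSeq served only for names, gene types, neighbourhood and miRNA sequences. Being arrays, their number limits the precision.

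The 14 arrays were fitted in limma 3.58.1 (R 4.3.3) with treatment as a block. Contrasts within each treatment, and their difference, came from a fit with 4 groups, and CM-414 against the mean of SAHA and Tadalafil from a fit of the 10 other arrays. Benjamini-Hochberg adjustment covered all genes tested, with a threshold of 0.05. The fit was tested on simulated data. The rule for named genes took 160: the largest rises and falls past the threshold, the members of smallest p in each class, the small nucleolar RNAs that differed most, and the genes past the threshold in both the 14 and the 10 arrays. Genes outside it, and the lists and families so described, were picked after their values had been seen. The members and all lists were chosen with earlier results of these data known. Same-numbered arrays of the 2 treatments had correlations of deviations between -0.097 and 0.147, so the numbers were not taken to pair animals. Alternatives were other filters, variance models, scalings, arrays left out, a replicate block and marker means as covariates.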

Additional observations from a re-analysis of the deposited data

Results flagged for a closer look

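Of 213 tests for a value far from its group, 12 passed Dixon's 95% critical value, where chance alone gives about 1 in 20. In replicas 4 to 7, Cfap126 was highest in SAHA and Tadalafil replica 4 at 5.925 (the nearest array had 5.633), and Srcap in saline replica 5 at 9.746 (nearest 9.652). Lowest values in the same set were those of Ppat in saline replica 7 at 7.019 (nearest 7.142), Vdac2 in saline replica 5 at 9.838 (nearest 9.985) and the dentate gyrus marker mean in saline replica 4 at 7.548 (nearest 7.72).

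In replicas 1 to 3, saline replica 1 had the lowest Rpl38 at 10.29 (nearest 10.66) and the lowest Snord11 at 8.107 (nearest 8.502). The proteasome mean was highest in saline replica 3 at 8.432 (nearest 8.366). In CM-414 arrays, replica 2 stood apart in Ttr at 13.81 (nearest 11.42), F5 at 9.386 (nearest 6.31) and the choroid plexus mean at 8.414 (nearest 6.701), and replica 3 in the thalamus mean at 8.887 (nearest 7.153).

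Probe sets outside the gene comparison also differed between the sets. Of 12847 tested probe sets without a gene name 15 passed the adjusted p by limma, 14 higher and 1 lower (0.117%). Of 1575 that name several genes 35 passed, 18 higher and 17 lower (2.22%). In the 10 other arrays 14 of the 15 and 31 of the 35 had the same sign, against 60.4% and 61.9% of all tested probe sets of each kind.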

How the results depend on the processing

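The 381 genes of the 14 arrays became 320 with no filter, 618 with a stricter filter, 662 with a trended and robust variance model, 591 with array weights, 182 in a fit of all 24 arrays and 9 with the choroid plexus covariate, which was chosen after seeing the data. Leaving out 1 array gave 158 (without SAHA and Tadalafil replica 2) to 583 (without saline replica 3). The 21 genes in saline arrays became 106, 198 and 40 under the stricter filter, the trended model and array weights, and 13 (without saline replica 7) to 36 (without saline replica 3) with an array left out. The 9 in SAHA and Tadalafil arrays became 5 with no filter, 18, 21 and 33 under those 3 settings, and 2 to 19 with an array left out. The 100 in CM-414 arrays became 254 with the stricter filter, 323 with the trended model and 151 after quantile normalization, and 12 (without Tadalafil replica 2 or 3) to 462 (without CM-414 replica 2). With the replica number as a block the counts were 349 in the 14 arrays, 22 in saline, 5 in SAHA and Tadalafil and 14 in CM-414. In the 14 arrays a number fixes the set, so that block was random. The cause of these changes was not tested. The difference between treatments kept 0 genes in every setting that refitted it. No named gene that passed in either fit changed sign. Class medians, which have no test, changed sign in 73 of 1482 results: that of C/D box RNAs was -0.01 and became 0.08 without saline replica 3 and with the choroid plexus covariate, that of spliceosomal snRNAs was -0.04 and became 0.02 with the covariate, and that of the choroid plexus list, from which the covariate is made, was 0.90 and became -0.05. For named genes 3529 results kept their side of the threshold, 575 lost the call and 45 gained it.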

Other observations

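Among genes with fewer or smaller differences, the replication-dependent histones had a median of 0.11 over 19 genes in the 14 arrays and 0.24 in the 10 others, with 0 and 1 called by limma. Immediate early genes, the transcription factors induced first by neuronal activity, had a median of -0.44 for CM-414 minus the single drugs, with 27 of 29 below 0 and 2 called as lower, and a median of -0.01 in the 14 arrays. The 14 thalamus markers were all above 0 in that contrast, with a median of 0.50, and CM-414 replica 3 had the highest thalamus mean of the 24 arrays at 8.89. The thalamus means of CM-414 replicas 1, 2 and 4 were 7.10, 7.08 and 7.15, within the single drug range of 7.04 to 7.17. The immediate early mean was 7.03 in CM-414 replica 3 and 7.49 to 7.74 in the other CM-414 arrays. In single drug arrays it was 7.67 to 8.11.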
